A study of Mus musculus with 10 samples.

Results

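The glycosylation genes followed here are 10 enzymes of terminal glycosylation, measured in J558 cells, a mouse myeloma (plasma-cell tumour) line, after the B-cell transcription factor Pax5 or its variant G183S was introduced. They are the 6 St3gal sialyltransferases, the sialyltransferase St6gal1, the fucosyltransferases Fut8 and Fut7, and the branching enzyme Gcnt2. Each gene was read from its probe sets that carry 1 gene symbol in the platform annotation, and the probe set with the highest mean was used where a gene had several. All 10 were measured, out of 19937 genes with such a probe set. St3gal6 and Fut8 were chosen by their measured log2 differences from empty vector in these arrays, so those differences are described here without a test; the other 8 stand beside them as enzymes of the same families.

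The arrays came from 4 cultures that received Pax5 G183S, 3 that received wild-type Pax5 and 3 that received the empty vector. All 10 cultures carried the retroviral vector MSCV-Puro-IRES-GFP (PIG), so puromycin resistance and green fluorescent protein were common to every group. Puromycin selection lasted 5 to 7 days, followed by a sort on GFP and IgM, so the values describe sorted cells of 1 tumour line and not normal plasma cells. The deposited values are log2 intensities per probe set, on which 1 unit is a doubling, and the labels call the replicates independent.

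Sialyltransferases work in the Golgi and cap the ends of sugar chains with sialic acid, a negatively charged sugar drawn from CMP-sialic acid. The St3gal enzymes and St6gal1 attach it to galactose through different linkages, and lectins such as the B-cell inhibitory receptor CD22 tell these linkages apart. Fucosyltransferases use GDP-fucose: Fut8 adds the core fucose at the base of N-linked chains, including those of antibodies, and Fut7 completes selectin ligands such as sialyl Lewis x.

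The introduced gene was checked first. Pax5 read 10.22, 10.36, 9.38 and 9.96 log2 units in the G183S cultures, 10.67, 10.09 and 10.05 in the wild-type cultures and 7.10, 6.84 and 7.01 with empty vector. Every array with a Pax5 construct lay above every empty-vector array, and the G183S and wild-type ranges overlapped (difference -0.29, 95% confidence interval -0.80 to 0.22). Of 8 plasma-cell markers 7 were measured and all 7 lay above 6.89, the median of all probe-set values; their mean per array was 10.93 to 11.97 in G183S cultures, 11.46 to 11.98 in wild-type cultures and 11.82 to 12.01 with empty vector, with none past the threshold in any comparison. Sdc1 lay below every empty-vector array with both constructs, as did Tnfrsf17 with G183S and Xbp1 with wild type. Irf4 lay above every empty-vector array with wild type. Groups did not overlap for 11.6% of all genes for G183S and 24.0% for wild type. By their mean over all arrays, 1 of 5 measured T-cell markers lay above the median of all probe-set values. So did 4 of 5 mature B-cell markers, 1 of 6 myeloid markers and 3 of 5 stromal markers. Against empty vector, 1 of 5 measured mature B-cell markers passed the threshold as higher with G183S and 2 with wild type. Of 5 T-cell markers 1, Cd3g, passed as lower with both. In either direction 0.311% of all genes passed with G183S and 1.88% with wild type. Cd4 also lay below every empty-vector array with both constructs, without passing, and Cd79b did with wild type. The part of these in the results was not tested. Array medians ran from 6.81 to 6.94, and no 2 arrays held the same values.

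Promoter windows are shown for the pair the comparisons turn on, because both genes start at more than 1 place and the starts differ in base composition. The windows are the 250 bases before an annotated start, from RefSeq on GRCm38.p6, written 5′ to 3′ on the gene's strand, with the CG pairs in capitals. The genome build behind the arrays is not given in the sources used here, so these coordinates are those of the RefSeq table alone. The St3gal6 windows lie at chr16:58524254-58524503 and chr16:58523427-58523676 on the minus strand, and the Fut8 windows at chr12:77238489-77238738 and chr12:77237854-77238103 on the plus strand.
St3gal6, first window: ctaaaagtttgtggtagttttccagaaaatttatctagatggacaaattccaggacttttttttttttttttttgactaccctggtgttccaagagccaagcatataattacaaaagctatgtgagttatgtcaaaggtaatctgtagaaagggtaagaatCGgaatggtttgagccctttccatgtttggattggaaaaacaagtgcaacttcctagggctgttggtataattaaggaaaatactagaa
St3gal6, second window: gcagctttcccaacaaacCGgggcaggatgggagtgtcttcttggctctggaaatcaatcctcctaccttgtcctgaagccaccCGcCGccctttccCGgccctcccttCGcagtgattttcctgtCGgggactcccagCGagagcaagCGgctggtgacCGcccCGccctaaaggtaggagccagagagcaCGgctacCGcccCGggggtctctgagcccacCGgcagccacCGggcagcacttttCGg
Fut8, first window: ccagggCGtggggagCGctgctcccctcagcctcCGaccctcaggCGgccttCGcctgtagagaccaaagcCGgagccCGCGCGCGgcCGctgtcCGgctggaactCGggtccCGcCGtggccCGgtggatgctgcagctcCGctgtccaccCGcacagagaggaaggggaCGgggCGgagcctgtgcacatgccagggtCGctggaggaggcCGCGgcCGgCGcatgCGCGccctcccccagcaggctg
Fut8, second window: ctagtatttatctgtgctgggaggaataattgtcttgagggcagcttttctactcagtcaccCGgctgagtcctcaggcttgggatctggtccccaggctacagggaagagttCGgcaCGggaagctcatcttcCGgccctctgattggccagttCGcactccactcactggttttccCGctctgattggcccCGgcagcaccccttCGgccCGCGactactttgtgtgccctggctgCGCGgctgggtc

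The first St3gal6 window held 1 CG pair and 34.8% G and C, and the second held 16 and 64.4%. The Fut8 windows shown held 27 and 12 CG pairs, with 74.8% and 59.2% G and C. Fut8 has 4 windows in the table, and the third and the fourth, not printed, held 0 and 3 CG pairs with 36.4% and 37.6% G and C. The table gave windows for 8 of the 10 genes, 17 in all; St3gal1 and St3gal2 were not among them. The letters GCGTGAC, found in consensus sites of Pax proteins, and the looser GCNTGAC, which contains them, were searched on both strands. Neither occurred in the 17 windows, while 1.78% and 8.79% of all 32851 windows of the same length held them. This says only that these letters are not in these windows.

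St3gal6 codes for an enzyme that places sialic acid on galactose of lactosamine ends. It read 10.11, 9.62, 9.31 and 9.65 in G183S cultures, 11.07, 10.82 and 10.60 in wild-type cultures and 7.43, 7.20 and 6.83 with empty vector. The ranges of the 3 groups did not touch: wild-type arrays were highest, G183S arrays lay between and empty-vector arrays were lowest. Group means were 9.67 ± 0.33 (SD, n = 4) for G183S, 10.83 ± 0.24 (SD, n = 3) for wild type and 7.15 ± 0.30 (SD, n = 3) for empty vector. G183S minus empty vector was 2.52 ± 0.20 log2 units (SE; 95% confidence interval 2.08 to 2.96), a 5.74-fold difference, which ranked 10 among all genes ordered by increase. Wild type minus empty vector was 3.68 ± 0.21 (3.21 to 4.15), a 12.8-fold difference, ranked 4. Both comparisons use the same empty-vector arrays.

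G183S cultures had less St3gal6 signal than wild-type cultures in every pair of arrays. The difference was -1.16 ± 0.20 log2 units (95% confidence interval -1.60 to -0.72), or 2.23-fold. After Benjamini-Hochberg adjustment over all genes, limma gave an adjusted p of 0.279, which missed the threshold of 0.05. Without G183S replicate 1 the difference was -1.30 with an adjusted p of 0.0107, and 5.58% of all genes passed. With all arrays kept, 0 of 19937 genes passed between G183S and wild type (0% of all genes).

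Fut8 codes for the sole mammalian enzyme known to add core fucose to N-glycans. It read 9.36, 9.02, 9.33 and 9.27 in G183S cultures, 9.20, 9.92 and 9.15 in wild-type cultures and 10.28, 10.27 and 10.41 with empty vector. Every empty-vector array lay above every array with a Pax5 construct, and the G183S values fell within the wild-type range except for 1 lower array. G183S minus empty vector was -1.08 ± 0.17 log2 units (95% confidence interval -1.45 to -0.70), a 2.11-fold lower signal, and wild type minus empty vector was -0.90 ± 0.18 (-1.30 to -0.49), 1.86-fold lower. Among all genes ordered by decrease these ranked 46 and 152. Wild-type replicate 2 read 9.92, well above the other wild-type arrays, and without it the wild-type difference was -1.14. G183S and wild type differed by -0.18 ± 0.17 (-0.56 to 0.20; limma adjusted p = 0.727).

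**Figure D1:**
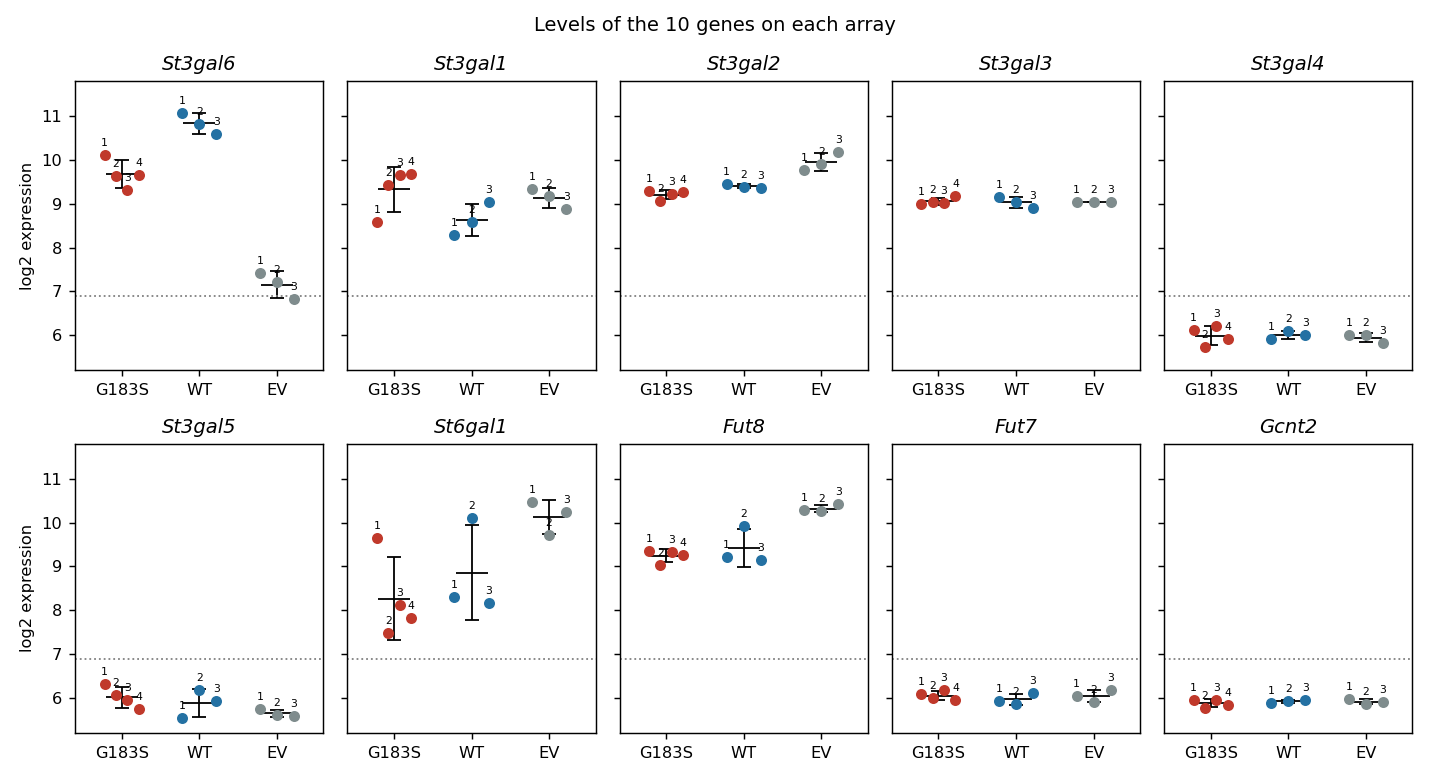
Log2 intensity of each of the 10 genes on every array (points numbered by replicate), with 1 panel per gene and the groups in the order Pax5 G183S, Pax5 WT and empty vector; bars are means with SD, and the dotted line is the median of all probe-set values. St3gal6 separates into 3 levels, Fut8 and St3gal2 are highest with empty vector, and St6gal1 spreads from 7.48 to 10.46.

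St3gal2, which sialylates core 1 O-glycans and gangliosides, was the other member that moved in both comparisons with empty vector, and it fell. It read 9.28, 9.05, 9.22 and 9.26 in G183S cultures, 9.45, 9.39 and 9.37 in wild-type cultures and 9.77, 9.90 and 10.18 with empty vector. All arrays with a Pax5 construct lay below all empty-vector arrays. G183S minus empty vector was -0.74 ± 0.098 (limma adjusted p = 0.0171), 1.67-fold lower, and wild type minus empty vector was -0.55 ± 0.11 (adjusted p = 0.0373), 1.46-fold lower. The G183S arrays also lay below the wild-type arrays without overlap, by -0.20 ± 0.098 (-0.42 to 0.024), with a limma adjusted p of 0.543. Its call held in 12 of 18 alternative settings for G183S (adjusted p 0.00263 to 0.115) and 8 of 18 for wild type (0.00401 to 0.131). Leaving out empty-vector replicate 2 or 3 was among those that ended it in both. In those fits 0.0552% and 0.0401% of all genes passed for G183S, and 0.105% and 0.0301% for wild type.

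St6gal1, the enzyme that builds the sialic acid linkage recognised by CD22 and found on antibodies, had the largest SD of the 10 genes in each group. It read 9.64, 7.48, 8.13 and 7.82 in G183S cultures, 8.29, 10.10 and 8.16 in wild-type cultures and 10.46, 9.71 and 10.23 with empty vector. G183S and empty-vector arrays did not overlap, but G183S replicate 1 came close to the lowest empty-vector array, and wild-type replicate 2 lay inside the empty-vector range. G183S minus empty vector was -1.87 ± 0.57 (95% confidence interval -3.13 to -0.61; limma adjusted p = 0.196), the size ranked 3 among decreases although it missed the threshold. Wild type minus empty vector was -1.28 ± 0.60 (-2.63 to 0.066; adjusted p = 0.341), and G183S minus wild type was -0.59 ± 0.57 (-1.85 to 0.68; adjusted p = 0.732). Without G183S replicate 1 the G183S difference from empty vector was -2.33 with a limma adjusted p of 0.0420. In that fit 1.48% of all genes passed. St6gal1 missed the threshold in 16 of 18 alternative settings of this comparison (adjusted p up to 0.534).

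The same arrays stood apart for the plasma-cell marker Tnfrsf17, the receptor BCMA. It read 10.25, 7.72, 8.96 and 9.04 in G183S cultures, 9.88, 11.12 and 9.89 in wild-type cultures and 10.83, 11.04 and 11.36 with empty vector. G183S replicate 1 and wild-type replicate 2 were the highest of their groups for both Tnfrsf17 and St6gal1. G183S replicate 1 was also the highest of its group for every other measured plasma-cell marker. Among those, wild-type replicate 2 was highest for Jchain only. Wild-type replicate 1 was highest for Sdc1, Xbp1, Prdm1, Irf4 and Mzb1. Whether the state of the cells in those cultures plays a part in the St6gal1 values was not tested. In bulk RNA, a smaller share of cells with a transcript and less of it per cell cannot be told apart.

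St3gal1, which sialylates core 1 O-glycans, differed in direction between the Pax5 constructs and missed the threshold in each comparison. It read 8.58, 9.43, 9.65 and 9.67 in G183S cultures, 8.29, 8.58 and 9.03 in wild-type cultures and 9.33, 9.18 and 8.88 with empty vector, and all 3 groups overlapped. G183S minus empty vector was 0.20 ± 0.27 (limma adjusted p = 0.886; 0.074 to 0.45 when 1 array was left out, highest without G183S replicate 1), wild type minus empty vector was -0.50 ± 0.28 (0.437) and G183S minus wild type was 0.70 ± 0.27 (0.508). G183S replicate 1 was the low array, and without it the G183S difference from wild type was 0.95 with a limma adjusted p of 0.0241. In that fit 5.58% of all genes passed. St3gal1 missed the threshold in 16 of 18 alternative settings of this comparison. A second St3gal1 probe set stayed between 7.21 and 7.52 on all arrays, so the probe sets of this gene disagreed.

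**Figure D2:**
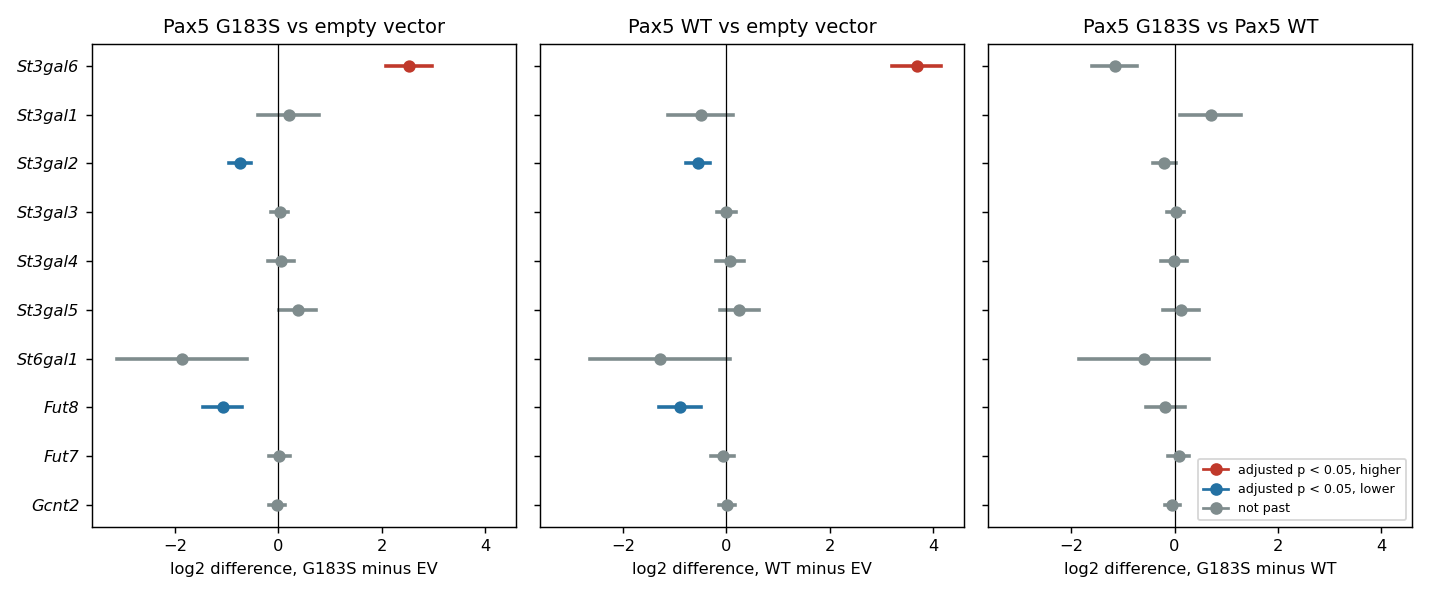
Log2 difference (x axis) for each of the 10 genes in the comparisons Pax5 G183S against empty vector, Pax5 WT against empty vector and Pax5 G183S against Pax5 WT; points are limma estimates and bars their 95% confidence intervals, coloured red (higher) or blue (lower) where adjusted p was under 0.05. St3gal6 lies far right in both comparisons with empty vector, while St6gal1 has the widest intervals.

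The remaining 5 genes moved little. St3gal3, which acts on lactosamine ends, read 9.03 to 9.04 on the empty-vector arrays, and its differences were 0.020 for G183S (95% confidence interval -0.15 to 0.19) and -0.0045 for wild type (-0.18 to 0.17) against empty vector. These intervals leave out changes as large as those of St3gal2, Fut8 or St3gal6. St3gal5, the GM3 synthase that starts the ganglioside series, read 6.31, 6.06, 5.95 and 5.74 in G183S cultures, 5.55, 6.19 and 5.93 in wild-type cultures and 5.74, 5.61 and 5.58 with empty vector. The G183S arrays lay just above the empty-vector arrays, by 0.37 ± 0.16 (limma adjusted p = 0.420).

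St3gal4, Fut7 and Gcnt2, which adds branches to lactosamine chains, were dim, as was St3gal5: all arrays lay below the median of all probe-set values. St3gal4 ranged from 5.74 to 6.20, Fut7 from 5.86 to 6.18 and Gcnt2 from 5.76 to 5.97 over the 10 arrays, with every group overlapping the others. Their differences ran from -0.073 to 0.084 over the 3 comparisons, and limma adjusted p from 0.757 to 0.988. Probe sets this dim respond weakly to changes in RNA, so small differences may go unseen, and no detection calls were used.

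Counted with the pair that was chosen on these values, 3 of the 10 members passed the threshold for G183S against empty vector (1 higher, St3gal6, and 2 lower, Fut8 and St3gal2), where 0.311% of all genes passed (0.211% lower, the rest higher). The same 3 passed for wild type against empty vector, where 1.88% passed (0.883% higher and 0.993% lower). St3gal6 and Fut8 are in both counts because they were chosen on these differences, so nothing is read from the counts against those shares; of the other 8 members, 1, St3gal2, passed in each comparison. Groups did not overlap for 5 members for G183S (2 higher and 3 lower, against 11.6% of all genes, 5.02% higher and 6.56% lower) and for 3 for wild type (1 higher and 2 lower, against 24.0%, 11.5% higher and 12.5% lower). The median difference over the 10 members was 0.015 for G183S and -0.039 for wild type, against -0.0033 and 0.013 over all genes.

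Between the Pax5 forms 0 of 10 members passed in limma's test. Of the 10, 2 had an unadjusted p under 0.05 (St3gal6 and St3gal1), where 9.48% of all genes did. Without moderation of the variances 0 members passed, where 0.00502% of all genes did. With array weights 4 passed (St3gal6, Fut8, St6gal1 and St3gal1), a setting that gave G183S replicate 1 a weight of 0.335 and wild-type replicate 2 a weight of 3.48, and under which 13.8% of all genes passed. The groups did not overlap for St3gal6 and St3gal2, both lower in G183S cultures, against 6.50% of all genes (2.33% higher and 4.17% lower).

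**Figure D3:**
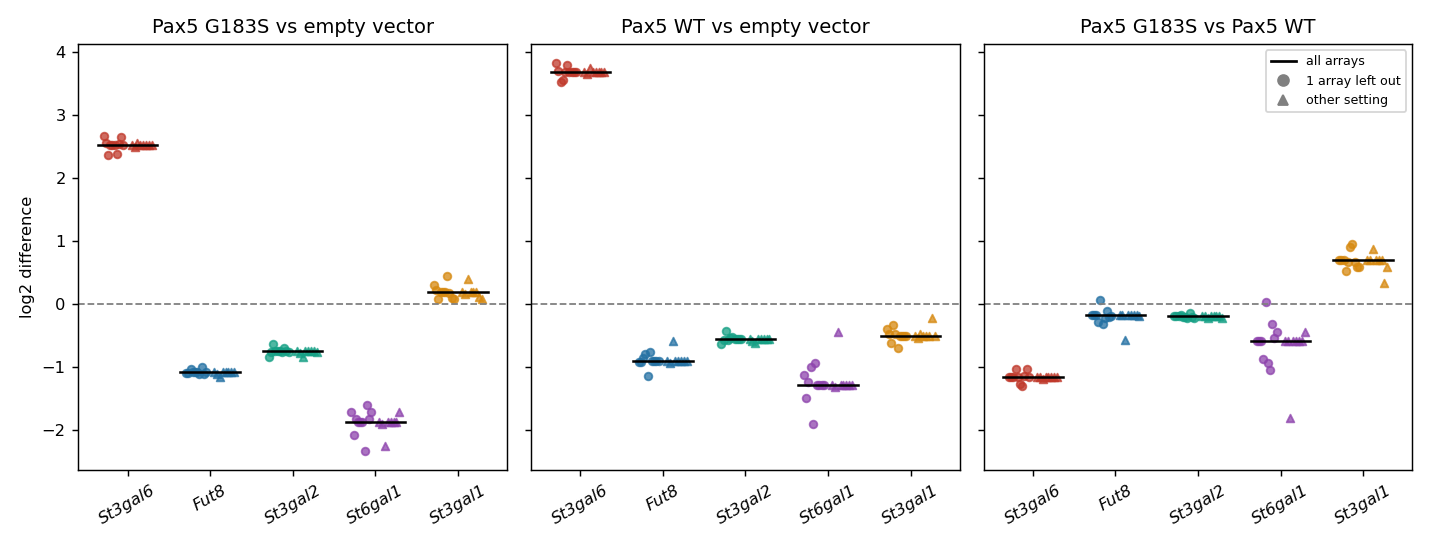
Log2 difference (y axis) of St3gal6, Fut8, St3gal2, St6gal1 and St3gal1 in the 3 comparisons under every setting: black bars use all arrays, circles leave out 1 array and triangles change another choice. The St3gal6 differences from empty vector ran from 2.36 to 2.66 for Pax5 G183S and 3.52 to 3.82 for Pax5 WT, while the Pax5 G183S against Pax5 WT difference of St6gal1 ranged across 0.

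The wider pathway was read from 103 further genes in 12 lists, of which 98 were measured. For G183S against empty vector 0 of 98 passed in limma's test, 15 had an unadjusted p under 0.05 (11.3% of all genes did), and 0 passed without moderation. For wild type against empty vector 5 of 98 passed, 4 higher and 1 lower, where 1.88% of all genes passed. In limma's test 29 of the 98 had an unadjusted p under 0.05 (15.9% of all genes did), and 0 passed without moderation. For G183S against wild type 0 of 98 passed, 16 had an unadjusted p under 0.05 (9.48% of all genes did), and 0 passed without moderation. Without moderation 0.0301%, 0.0201% and 0.00502% of all genes passed in the 3 comparisons, so nothing is read from those counts of 0. With array weights 12, 25 and 21 list genes passed in the 3 comparisons, and 7.27%, 12.9% and 13.8% of all genes passed with them. The lists' medians stayed between -0.25 and 0.23 log2 units in every comparison.

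Siglecg, a sialic acid receptor that dampens B-cell signalling, moved most among the called list genes. It read 7.81, 7.47, 7.50 and 7.39 in G183S cultures, 8.88, 8.29 and 8.30 in wild-type cultures and 6.81, 6.85 and 6.74 with empty vector, with no overlap between any pair of groups. Wild type minus empty vector was 1.69 ± 0.16 (limma adjusted p = 0.00324), a 3.23-fold rise, and G183S minus empty vector was 0.74 ± 0.15 (adjusted p = 0.0762). G183S minus wild type was -0.95 ± 0.15 (adjusted p = 0.263). The order of the groups was that of St3gal6. Siglecg was 1 of 9 measured lectins and ligands, the other 8 of which missed the threshold for wild type.

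Man2a1 codes for a mannosidase that trims N-glycans. It read 11.72, 11.22, 10.84 and 11.49 in G183S cultures, 12.15, 11.83 and 11.66 in wild-type cultures and 10.82, 10.72 and 10.71 with empty vector. It rose by 1.13 ± 0.20 with wild type (adjusted p = 0.0290), and the G183S difference was 0.57 ± 0.19 (0.253). It was the 1 called gene of 11 in N-glycan trimming and branching. St6galnac6, a sialyltransferase of gangliosides, fell by 0.48 with wild type (9.16, 9.12 and 9.11, against 9.55, 9.70 and 9.59 with empty vector; adjusted p = 0.0248), the 1 called gene of 13 other sialyltransferases, and its G183S difference was -0.35 (0.0906). St6galnac2 of the same list, named after its values were seen, differed more with wild type, by 1.31 ± 0.40, but with more spread (limma adjusted p = 0.137).

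In ganglioside synthesis and breakdown 2 of 7 measured genes rose with wild type. B4galnt1, the GM2 synthase, differed by 0.60 ± 0.11 (adjusted p = 0.0357) with wild type and by 0.10 ± 0.11 (0.833) with G183S. Ugcg, which makes glucosylceramide, differed by 0.30 ± 0.062 (0.0453) with wild type and by 0.25 ± 0.058 (0.102) with G183S, and its G183S and wild-type arrays overlapped. These 4 calls other than Siglecg were lost when any 1 empty-vector array was left out, while Siglecg stayed called. Without empty-vector replicate 1, 2 or 3, 0.612%, 0.105% and 0.0301% of all genes passed for wild type. Without moderation of the variances all 5 were lost, Siglecg at an adjusted p of 0.0635, and 0.0201% of all genes passed.

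No gene passed in the other 8 lists, and each is given here by its gene of smallest p over the 3 comparisons. For wild type against empty vector these were Nans, of sialic acid supply (-0.32; adjusted p = 0.0995; 7 measured), Gfus, of GDP-fucose supply (-0.19; 0.478; 6), and B4galt5, of the lactosamine chain enzymes (-0.43; 0.0630; 10). So were C1galt1, of O-glycan initiation and core 1 (0.39; 0.0716; 11), Gcnt3, of the other core 2 and I branching enzymes (0.78; 0.270; 4), and Lgals3bp, of the galectins (-0.75; 0.201; 6). Between G183S and wild type lay the smallest p of Ctsa, of the sialidases and fucosidases (0.23; adjusted p = 0.484; 7 measured), whose arrays did not overlap, and of Pofut2, of the other fucosyltransferases (0.24; 0.528; 7). Sialic acid and GDP-fucose supply genes gave no call, and nothing is read from this. Against empty vector 0.311% of all genes passed for G183S and 1.88% for wild type. Of the 7 sialic acid supply genes 2, Nans and Nanp (-0.29), lay below empty vector without overlap with wild type, where 12.5% of all genes did.

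**Figure D4:**
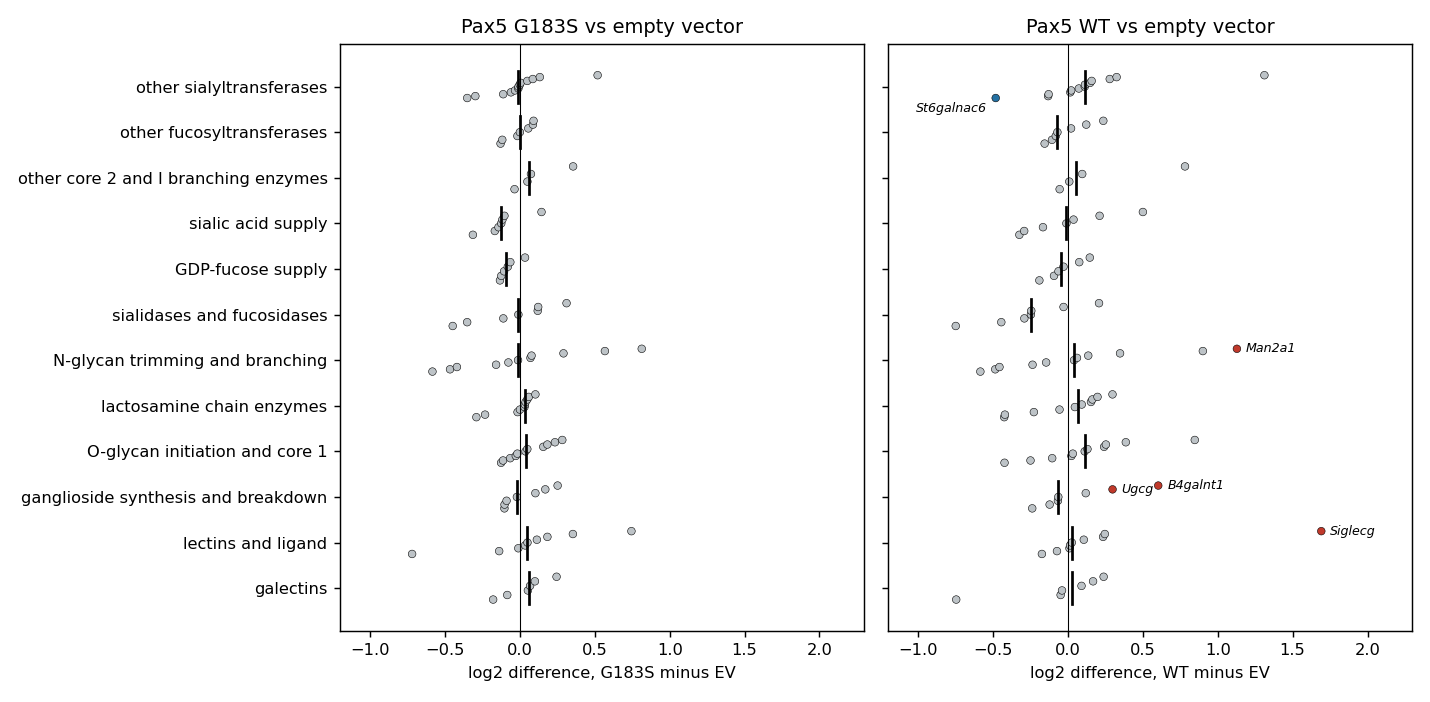
Log2 difference of every measured gene of the 12 pathway lists (1 row per list) in the comparisons of Pax5 G183S, then Pax5 WT, with empty vector; red (higher) and blue (lower) points passed the threshold and are named, grey points did not, and vertical bars are list medians. Siglecg, Man2a1, B4galnt1, Ugcg and St6galnac6 are the called genes, all in the wild-type comparison.

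Genes with the pattern most like that of St3gal6 were found by Pearson r over the 10 arrays among 9486 candidates, the genes whose mean was above the median of all gene means, leaving out small RNAs, immunoglobulin and T-cell receptor segments, large receptor families and symbols of predicted genes or clones. They were Fhod3 (r = 0.969), Irf8 (0.965), Mtpn (0.962), Cd36 (0.959) and Rbm24 (0.959), and the most opposite were Armh3 (-0.968), Zfp395 (-0.965) and Mxi1 (-0.959). Irf8 is a transcription factor of B and myeloid cells and Cd36 a scavenger receptor. Their differences from empty vector were 1.85 for Irf8 and 5.63 for Cd36 in G183S cultures, and 2.29 and 6.31 in wild-type cultures. For Fut8 they were Dop1b (0.97), Jarid2 (0.962), Trpc4ap (0.956), Slc29a3 (0.955) and Pecam1 (0.954), with Ston2 (-0.962), Rab6a (-0.949) and Agfg1 (-0.940) opposite. These values carry no p, since the arrays share their 3 groups; over deviations from group means r for the 5 genes most like St3gal6 ran from 0.36 (Rbm24) to 0.74 (Irf8), and for the opposite ones from -0.87 (Zfp395) to -0.24 (Mxi1). For the 5 most like Fut8 it ran from 0.78 (Pecam1) to 0.91 (Dop1b), and for the opposite ones from -0.87 (Rab6a) to -0.78 (Ston2). St3gal6 and Fut8 ran against each other over all arrays (r = -0.791) but not within groups (r = -0.018). They were chosen for opposite differences from empty vector, so nothing is read from the r over all arrays.

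The neighbours of St3gal6 and Fut8 differed less from empty vector than these 2 genes did. Since St3gal6 and Fut8 were chosen by those differences, nothing is read from this. Col8a1 and Dcbld2 on one side of St3gal6 and Ftdc1 and Ftdc2 on the other differed from empty vector by -0.21 to 0.17, and Fntb, Max, Gphn and Fam71d around Fut8 by -0.28 to 0.095. Ftdc2 lay above empty vector without overlap with both constructs (0.15 for G183S and 0.17 for wild type). Gphn lay below it without overlap with wild type (-0.20). Groups did not overlap for 11.6% of all genes for G183S and 24.0% for wild type. None of the 8 neighbours passed the threshold in any comparison, and Col8a1, Ftdc1, Ftdc2 and Fam71d were dim.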

How the data were processed

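Gene expression was measured on whole-transcript arrays from 100 ng of total RNA per culture. The authors deposited log2 values per probe set; RMA and Partek are named, without versions, per the submitters' processing notes, and no build or detection calls were used here. Because RMA equalises the arrays' distributions, a change common to most genes cannot be seen. Of 34760 probe sets 21640 had 1 gene symbol, which gave 19937 genes (highest-mean probe set each).

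limma 3.58.1 in R 4.3.3 was fitted to all 10 arrays with 1 coefficient per group, moderated variances (residual degrees of freedom 7, prior 2.88) and two-sided Benjamini-Hochberg adjustment over all genes; adjusted p under 0.05 was called. The number of arrays limits the precision. The fit was tested on simulated data. Replicate numbers were not taken as pairs, since not every same-numbered pair deviated together.

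The members, lists and markers were chosen with earlier results of these data known. Named are the members, Pax5, list genes past the threshold or else of smallest p, the 5 most and 3 least alike genes, and neighbours in the RefSeq table. Tnfrsf17 was named after its values were seen. Alternatives changed the level filter, centring, weights, moderation, groups fitted, probe-set rule, replicate block and each array. Figures used Python 3.11.15 and matplotlib 3.10.9.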

Additional observations from a re-analysis of the deposited data

How the results depend on the processing

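Each of the 18 alternatives was run on all 3 comparisons. The differences from empty vector of St3gal6 and Fut8, which chose these genes, are given by their range: 2.36 to 2.66 for St3gal6 with G183S and 3.52 to 3.82 with wild type, and for Fut8 a most negative value of -1.16 with G183S and -1.14 to -0.59 with wild type. Of the 3 members past the threshold against empty vector, 1 passed without moderation and 1 with a replicate block, for G183S and for wild type alike, and 1 for wild type with only 2 groups fitted; leaving out 1 array gave 1 to 4 for G183S and 1 to 3 for wild type. Without moderation 0.0301% of all genes passed for G183S and 0.0201% for wild type. The member counts include St3gal6 and Fut8, so they carry no support for either. Between G183S and wild type the count of 0 became 4 with array weights and 1 with the replicate block (St3gal6, -1.15, limma adjusted p = 0.0262), and 0 to 2 without 1 array, 2 (St3gal6 and St3gal1) without G183S replicate 1. The cause was not tested. Same-numbered G183S and wild-type arrays deviated together for numbers 1 and 3 (r of deviations 0.51 and 0.46) but not for number 2 (-0.16), and r against empty vector ran from -0.16 to 0.11, so the numbers were not taken as pairs; G183S replicate 4 had no partner in the block.

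Differences near 0 changed sign. For G183S against empty vector, centring gave St3gal3 -0.015 and Fut7 -0.025, array weights gave St3gal4 -0.020 and Fut7 -0.045, and the replicate block gave St3gal3 -0.021. For wild type against empty vector, centring gave Gcnt2 -0.027 and array weights gave St3gal3 0.000608. For G183S against wild type, the replicate block gave St3gal3 -0.016 and St3gal4 0.011, and array weights gave St3gal5 -0.14. Without 1 array the G183S difference from empty vector ran from -0.021 to 0.042 for St3gal3, -0.021 to 0.13 for St3gal4, -0.061 to 0.081 for Fut7 and -0.058 to 0.0065 for Gcnt2. The wild-type difference ran from -0.066 to 0.064 for St3gal3 and -0.018 to 0.038 for Gcnt2. Between G183S and wild type it ran from -0.043 to 0.087 for St3gal3, -0.086 to 0.069 for St3gal4, -0.047 to 0.27 for St3gal5, -1.04 to 0.038 for St6gal1 and -0.32 to 0.068 for Fut8; the last 2 turned positive without wild-type replicate 2.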
